A study of Mus musculus with 20 samples.

Results

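A family of enzymes that dendritic cells use to make retinoic acid or to consume amino acids was followed by RNA sequencing in cDC1s, the conventional dendritic cells of type 1, sorted from mice. The family held 7 genes of the 55487 in the longest count table, found by their Ensembl identifiers: Aldh1a2, Ido1, Ido2, Kynu, Il4i1, Arg1 and Arg2. All 20 libraries in 8 groups were used. After tolerogenic treatment Arg1 was 15.3-fold higher in cells sorted as EpoR+ than in EpoR- cDC1s, a call that some alternative fits lost. DESeq2 also called Ido1 and Kynu there, and so did edgeR with the replicate number as a block, which did not call Arg1. In the same comparison all 24 macrophage markers rose and 13 of 14 cDC1 markers fell, where 16.7% of all genes tested passed. Aldh1a2 and Kynu were lower in lymph node than in spleen cDC1s of either genotype. No enzyme passed edgeR's test after loss of Epor or after the treatment itself, although DESeq2 called Il4i1 after the treatment. The counts of Il4i1 there may include reads of Tbc1d17, a gene on the opposite strand.

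The enzymes are known as metabolic arms of immune regulation. Aldh1a2 (RALDH2) oxidises retinal to retinoic acid, which dendritic cells can hand to T cells to favour regulatory and gut-homing fates. Ido1 and Ido2 open the indole ring of tryptophan and start the kynurenine pathway, and Kynu (kynureninase) cleaves kynurenine and its hydroxylated form further down. Il4i1 is a secreted oxidase of aromatic amino acids, and its products and kynurenine can act on the aryl hydrocarbon receptor. Arg1, in the cytosol, and Arg2, in mitochondria, split arginine into ornithine and urea, and arginine is also the substrate of nitric oxide synthases.

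The groups came in 3 tables, and each table was tested by itself because the tables were counted separately. The first held XCR1+CD8a+ cDC1s from C57BL/6 mice of the wild type, on day 15 of TLI/ATS (n = 2) or untreated (UNT, n = 2). TLI/ATS joins irradiation of the lymphoid organs with a serum against thymocytes. The second held EpoR+ cells and EpoR- cells (n = 2 each) of the cDC1s of EpoR-tdTomato reporter mice, all on day 15 of TLI/ATS. The third held XCR1+SIRPa- cDC1s labelled CCR7+ of Epor-Xcr1-Cre cKO mice and of Epor flox/flox controls, from peripheral lymph node (pLN), where the label adds that they are migratory, and from spleen (n = 3 in each of 4 groups). The labels name no treatment for the third table, no tissue for the first and second, and no animal ages. Cre is driven by Xcr1 and the controls carry no Cre, so effects of Cre and of Epor loss cannot be told apart. Tissue comparisons are also comparisons of the cells taken as migratory from lymph node with those of the spleen.

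Libraries held 26618029 to 77570149 counts. Xcr1 and Clec9a, which define cDC1s, were counted in every library, with CPM (counts scaled to a common library total) of 20.5 to 1140 and 14.1 to 654. Epor had 525 and 657 counts in EpoR+ and 4 and 11 in EpoR- libraries, 236 and 127 after TLI/ATS and 0 in both untreated libraries. In the third table it had 0 to 2 counts in cKO and 0 to 28 in control libraries, so the deleted gene was itself barely counted in many controls. Nothing in the labels says that replicates came from separate animals, so p-values measure the spread between these samples, which may be technical. In bulk libraries, fewer cells of a type and less RNA per cell cannot be told apart.

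Aldh1a2 (ENSMUSG00000013584) lies on chromosome 9 of GRCm38 from 71215789 to 71296243, plus strand. Its start region is shown because Aldh1a2 is an enzyme whose level differed between the tissues in either genotype, and because retinoid and aryl hydrocarbon receptor motifs belong to the pathways described here. The window runs from 250 bases before to 50 bases after the RefSeq start (GRCm38.p6, chr9:71215539-71215838, plus strand, 5′ to 3′), and capitals mark GCGTG, the core bound by the aryl hydrocarbon receptor.
Aldh1a2 promoter: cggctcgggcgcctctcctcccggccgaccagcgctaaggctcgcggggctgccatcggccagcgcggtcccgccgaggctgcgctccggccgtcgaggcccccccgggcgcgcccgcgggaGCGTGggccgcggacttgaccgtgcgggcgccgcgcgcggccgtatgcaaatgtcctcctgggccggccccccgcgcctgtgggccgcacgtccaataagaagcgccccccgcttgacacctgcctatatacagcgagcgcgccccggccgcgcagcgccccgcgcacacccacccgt
This window was 78% G or C and held 1 GCGTG on either strand, beginning 128 bases before the start (position -128), a motif found in 32.4% of 32851 RefSeq windows of 300 bases. AGGTCA, the core site of retinoid receptors, was absent from it and present in 16.3% of windows. TTCNNNGAA, the site of STAT factors, was absent and present in 8.3%, and TATAAA was absent and present in 13.6%. Both strands were searched and no motif overlapped another here. RefSeq windows were at hand for 2 of the 7 genes, the other being Il4i1.

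**Figure D1:**
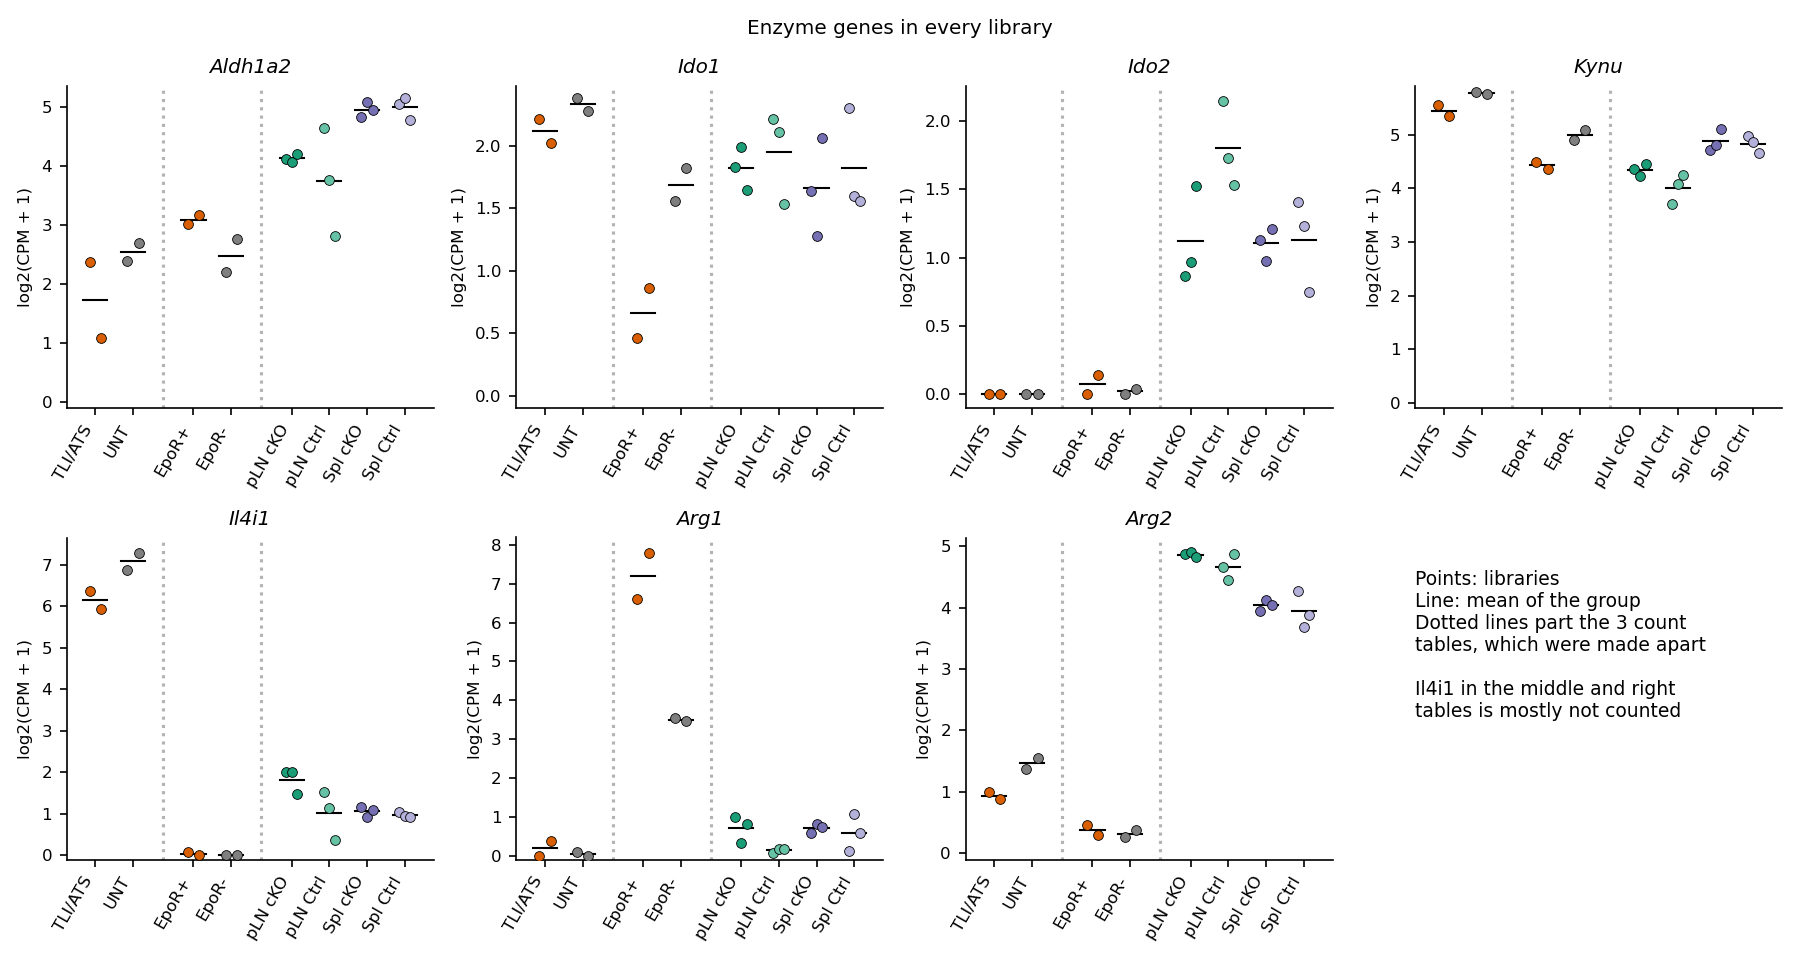
Level of each enzyme gene as log2(CPM + 1), with a point per library and a line at the group mean. The first 2 groups, the next 2 and the last 4 come from 3 tables and are comparable only within their table. In the EpoR sort Arg1 stands higher in EpoR+ cells, at 96.5 and 222 CPM before the log. Aldh1a2 and Kynu stand lower in lymph node than in spleen.

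Retinoic acid synthesis was described by Aldh1a2. It had 16.4, 15.8 and 17.3 CPM in lymph node cKO libraries, against 27.3, 32.8 and 29.7 CPM in spleen cKO libraries. In controls it had 24, 12.6 and 6.05 CPM in lymph node, against 32.1, 34.5 and 26.3 CPM in spleen. All lymph node libraries lay below all spleen libraries of their genotype. The groups were apart in CPM for 53.1% of all genes tested in cKO mice and for 51.1% in controls. The 3 lymph node controls were spread over a wider range than any other group of the table. Aldh1a2 fell in lymph node relative to spleen by 1.10 ± 0.32 (SE) on the log2 scale in cKO mice (edgeR, adjusted p = 0.0167) and by 1.41 ± 0.32 in controls (edgeR, adjusted p = 0.00261). The size factors of the test lower lymph node against spleen. By counts per depth Aldh1a2 stood at 0.559 of spleen in cKO mice and 0.472 in controls, against 0.466 and 0.377 in the fit. It was among 3 of 7 enzymes that passed in cKO mice, where 29.4% of all genes tested passed, and among 3 of 7 in controls, where 41.3% did, so a call is common in these comparisons. Without cKO replicate 2 of spleen, or replicate 1 or 2 of lymph node, the call in cKO mice was lost (edgeR, adjusted p = 0.0553, 0.0542 and 0.0567, within 4.23e-06 to 0.0567 over 12 alternatives). In controls it held in all 12 alternatives, at -1.03 without lymph node replicate 3 and -2.01 without lymph node replicate 1.

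In the EpoR sort, Aldh1a2 had 7.07 and 7.94 CPM in EpoR+ libraries, against 3.59 and 5.79 CPM in EpoR- libraries. The fractions did not overlap, as they did not for 58.1% of all genes tested. The log2 fold change of 0.66 ± 0.32 (SE) did not pass (edgeR, adjusted p = 0.239). After TLI/ATS it had 4.19 and 1.11 CPM, against 4.22 and 5.45 CPM in untreated cDC1s. The log2 fold change was -0.78 ± 0.61 (edgeR, adjusted p = 0.644), and it became -1.91 without TLI/ATS replicate 1 (edgeR, adjusted p = 0.0112), so the value rests on which treated library is read. Loss of Epor left log2 fold changes of 0.22 ± 0.32 in lymph node and -0.08 ± 0.32 in spleen, neither past the test (edgeR, adjusted p = 0.98 and 0.954). The lymph node value was -0.15 without control replicate 3, the library at 6.05 CPM.

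The tryptophan arm begins with Ido1 and Ido2, neighbours on chromosome 8 (minus strand) with 7.8 kb between them. Ido1 (ENSMUSG00000031551) lies from 24584136 to 24597009 and Ido2 (ENSMUSG00000031549) from 24531892 to 24576333. Ido1 had 14 and 31 counts in EpoR+ libraries, against 78 and 85 in EpoR- libraries. That is 0.375 and 0.817 CPM in EpoR+, against 1.94 and 2.53 CPM in EpoR- cDC1s. The fractions did not overlap, as they did not for 58.1% of all genes tested. The log2 fold change of -1.92 ± 0.60 (SE) did not pass (edgeR, adjusted p = 0.0935), while it passed by DESeq2 and with the replicate number as a block.

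Ido1 was otherwise low and even. After TLI/ATS it had 3.65 and 3.06 CPM, against 4.22 and 3.87 CPM in untreated cDC1s (edgeR, log2 fold change -0.15 ± 0.26, adjusted p = 0.866). In lymph node it had 2.56, 2.98 and 2.13 CPM in cKO and 3.65, 3.31 and 1.89 CPM in control libraries. In spleen it had 2.11, 1.43 and 3.17 CPM in cKO and 3.95, 2.03 and 1.95 CPM in control libraries. These 4 groups overlapped each other, and the log2 fold changes between them, from -0.27 to -0.06, were smaller than their SE of 0.44 to 0.45.

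Ido2 was near 0 (at most 10 counts in every library) in the first and second tables. It had 0 counts in all 4 libraries of the first table, which allows up to 0.0739 CPM in the shallowest of them (3 counts, counting error only). It had 0 and 4 counts in EpoR+ libraries, against 0 and 1 in EpoR- libraries. In the CCR7+ cells of the third table it was counted everywhere, at 24 to 140 counts.

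In lymph node, Ido2 had 0.821, 0.958 and 1.87 CPM in cKO libraries, against 3.43, 2.31 and 1.89 CPM in controls. In spleen it had 1.19, 0.962 and 1.31 CPM in cKO libraries, against 1.65, 1.35 and 0.677 CPM in controls. The lymph node groups were next to each other without overlap and the spleen groups overlapped. The log2 fold change in lymph node was -1.04 ± 0.53 (SE) and did not pass (edgeR, adjusted p = 0.712). Of the summed level of the pair per kilobase (kb) of unshared exon, Ido1 made up 69.4 to 86.1% in lymph node cKO and 66.7 to 74.1% in lymph node controls. In spleen the Ido1 share was 74.7 to 82.9% in cKO and 74.9 to 85.2% in controls.

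Kynu (ENSMUSG00000026866; chromosome 2, 43555329 to 43682715, plus strand) was well counted in every library, at 493 to 3578 counts. In cKO mice it had 19.6, 17.8 and 20.9 CPM in lymph node, against 25.3, 27 and 33.6 CPM in spleen. In controls it had 12.1, 16 and 18 CPM in lymph node, against 30.6, 28.3 and 24.2 CPM in spleen. Every lymph node library lay below every spleen library. The groups were apart in CPM for 53.1% of all genes tested in cKO mice and for 51.1% in controls. Kynu fell in lymph node relative to spleen by 0.80 ± 0.17 (SE) on the log2 scale in cKO mice (edgeR, adjusted p = 0.00244) and by 1.14 ± 0.18 in controls (edgeR, adjusted p = 9.1e-05), and each call held in all 12 alternatives. By counts per depth Kynu stood at 0.69 of spleen in cKO mice and 0.552 in controls, against 0.574 and 0.453 in the fit.

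In the EpoR sort Kynu had 21.6 and 19.6 CPM in EpoR+ libraries, against 29 and 32.9 CPM in EpoR- libraries. The fractions did not overlap, as they did not for 58.1% of all genes tested. The log2 fold change of -0.60 ± 0.15 (SE) lay just outside the threshold (edgeR, adjusted p = 0.0555). The call depended on the fit, since Kynu passed by DESeq2 and with the replicate number as a block (edgeR, adjusted p = 0.0139). After TLI/ATS Kynu had 46.1 and 39.7 CPM, against 55 and 53.4 CPM in untreated cDC1s, and did not pass the test (edgeR, log2 fold change -0.22 ± 0.16, adjusted p = 0.63). These groups did not overlap either, as they did not for 46% of all genes tested. Loss of Epor gave 0.35 ± 0.17 in lymph node (edgeR, adjusted p = 0.687) and 0.02 ± 0.17 in spleen (edgeR, adjusted p = 0.988).

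Il4i1 (ENSMUSG00000074141; chromosome 7, 44816387 to 44840809, plus strand) was well counted only in the first table. Even there, reads of a gene on the opposite strand may be among its counts. Of its 4080 exon bases, 86.3% were shared with other genes, and 83.9% of all its exon bases lay under the exons of Tbc1d17 on the opposite strand, as the exon map shows. Il4i1 had 82.3 and 60.1 CPM after TLI/ATS, against 117 and 156 CPM in untreated cDC1s. The treated libraries were the lower ones, in a comparison where the groups were apart for 46% of all genes tested. The log2 fold change of -0.83 ± 0.22 (SE) did not pass over all genes (edgeR, adjusted p = 0.165), while DESeq2 put it past the threshold (log2 fold change -0.80, adjusted p = 0.0368). The strand setting of that count is not given in the sources used here, so reads of Tbc1d17 within it cannot be told apart. Tbc1d17 itself had 77.7 and 55.2 CPM after TLI/ATS, against 109 and 101 CPM in untreated cDC1s (edgeR, log2 fold change -0.55 ± 0.19, adjusted p = 0.268).

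**Figure D2:**
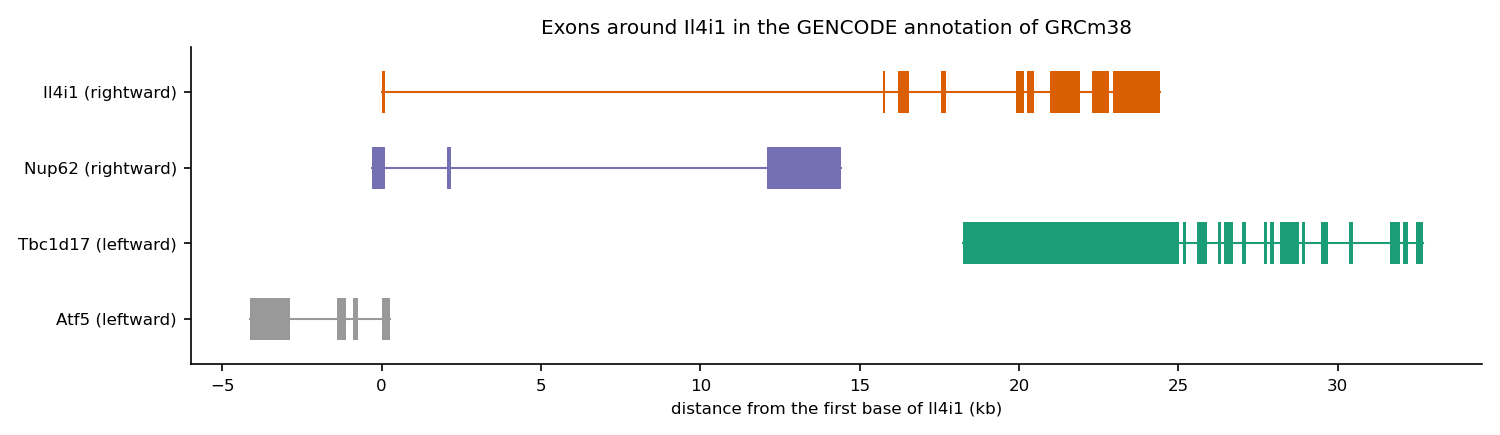
Exons (boxes) of Il4i1 and its neighbours by distance in kb from the first base of Il4i1, with the direction of transcription in the row names. The long last exon of Tbc1d17 covers most exons at the 3′ end of Il4i1, and the first exon of Il4i1 meets Nup62 on the same strand (97 bases) and Atf5 on the opposite strand (82 bases).

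In the EpoR sort Il4i1 had 2 and 0 counts in EpoR+ libraries and 0 in both EpoR- libraries. In the third table it had 11 to 128 counts, against 4045 to 6384 in the first. Of 96 protein-coding genes with over 70% of their exon bases under exons of the opposite strand, 22 averaged at least 5 CPM in the first table, 4 in the second and 4 in the third. Of 16406 genes with no such overlap the share was 39.2, 40.8 and 35.5%. The second and the third table were counted without strand, per their headers, so low Il4i1 counts there give no measure of its expression.

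Within that limit, Il4i1 had 3, 3.03 and 1.77 CPM in lymph node cKO libraries, against 1.89, 1.22 and 0.297 CPM in lymph node controls. The groups overlapped, and the log2 fold change of 1.19 ± 0.60 (SE) did not pass (edgeR, adjusted p = 0.708). In spleen it had 1.23, 0.9 and 1.13 CPM in cKO and 1.07, 0.939 and 0.903 CPM in control libraries. Only 560 exon bases of Il4i1 are free of other genes.

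The arginine arm gave the largest difference of the family. Arg1 (ENSMUSG00000019987; chromosome 10, 24915221 to 24927484, minus strand) had 3603 and 8416 counts in EpoR+ libraries, against 425 and 336 in EpoR- libraries. That is 96.5 and 222 CPM in EpoR+, against 10.6 and 9.98 CPM in EpoR- cDC1s. The EpoR+ libraries differed from each other by more than the EpoR- libraries did, and each lay far above both. Arg1 rose with a log2 fold change of 3.93 ± 0.49 (SE; edgeR, adjusted p = 0.014). By DESeq2 Ido1 and Kynu passed as well, and with the replicate number as a block they passed and Arg1 did not. In the main fit Arg1 was the only enzyme of 5 tested to pass, where 16.7% of all genes tested passed. Without EpoR- replicate 1 or 2 the direction and size stayed (3.98 and 3.88) but the call was lost (edgeR, adjusted p = 0.292 and 0.32), as it was with no filter on low counts (edgeR, adjusted p = 0.106) and with the replicate number as a block (edgeR, adjusted p = 0.0584), within 9.66e-29 (DESeq2) to 0.32 (edgeR) over 9 alternatives. It was 4.4 without EpoR+ replicate 1 and 3.23 without EpoR+ replicate 2.

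Markers of macrophages, cells in which Arg1 is well known, moved with it. All 24 on the list rose in EpoR+ cells, where 16.7% of all genes tested passed, and none was at 0. Their summed level was 32900 to 33200 CPM in EpoR+ libraries, against 879 to 1000 CPM in EpoR- libraries. Of 14 cDC1 markers 13 fell, with sums of 10100 to 11700 CPM in EpoR+ and 21100 to 22700 CPM in EpoR- libraries. Markers of cDC2s and monocytes rose for 9 of 15 and fell for 1, with sums of 2700 to 2890 CPM in EpoR+ and 341 to 520 CPM in EpoR- libraries. The part of these cells in the Arg1 result was not tested.

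Elsewhere Arg1 was close to the floor. It had 0 and 20 counts after TLI/ATS, against 3 and 0 in untreated cDC1s, and did not pass the filter on low counts there. In lymph node it had 43, 10 and 38 counts in cKO libraries, against 2, 5 and 5 in controls. In spleen it had 22, 24 and 23 counts in cKO libraries, against 3, 29 and 18 in controls. The lymph node groups did not overlap, and their log2 fold change of 2.72 ± 1.02 (SE) had an unadjusted p of 0.0175 that did not hold over all genes (edgeR, adjusted p = 0.519). In controls Arg1 fell in lymph node relative to spleen by 2.70 ± 1.03 (edgeR, adjusted p = 0.0464). The libraries of that comparison overlapped, and the call held in 4 of 11 alternatives (edgeR, adjusted p = 0.0119 to 0.194). It was lost without lymph node control replicate 1, 2 or 3 and without spleen control replicate 2 or 3 (edgeR, adjusted p = 0.139, 0.0905, 0.0797, 0.194 and 0.0706), with no filter on low counts (edgeR, adjusted p = 0.126) and with the replicate number as a block (edgeR, adjusted p = 0.0827), and the log2 fold change was -1.85 without spleen control replicate 2.

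Arg2 (ENSMUSG00000021125; chromosome 12, 79130777 to 79156301, plus strand) stood high in the third table. It shares 28.1% of its exon bases with genes on the other strand, Vti1b and Gm48780, which makes its counts less certain. In cKO mice it had 28.1, 29 and 27.2 CPM in lymph node, against 14.4, 16.5 and 15.4 CPM in spleen. In controls it had 24.3, 20.9 and 28.1 CPM in lymph node, against 18.3, 11.8 and 13.7 CPM in spleen. In CPM all lymph node libraries lay above all spleen libraries, where the groups were apart for 53.1% of all genes tested in cKO mice and 51.1% in controls. CPM leave out the TMM size factors of the test, which were 0.837 to 0.936 in spleen and 1.06 to 1.13 in lymph node libraries. These factors lower lymph node against spleen. In controls Arg2 was 1.64-fold higher by counts per depth and 1.36-fold higher in the fit. Arg2 rose in lymph node relative to spleen by 0.62 ± 0.17 (SE) on the log2 scale in cKO mice (edgeR, adjusted p = 0.0142), a call lost only without spleen cKO replicate 1 (edgeR, adjusted p = 0.0535) among 12 alternatives. In controls the log2 fold change was 0.45 ± 0.18 and just missed the threshold (edgeR, adjusted p = 0.0531).

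In the other tables Arg2 was low. It had 14 and 9 counts in EpoR+ libraries, against 8 and 10 in EpoR- libraries, which overlapped. After TLI/ATS it had 0.993 and 0.846 CPM, against 1.6 and 1.92 CPM in untreated cDC1s. The treated libraries were lower, in a comparison where the groups were apart for 46% of all genes tested. The log2 fold change of -0.82 ± 0.35 (SE) did not pass (edgeR, adjusted p = 0.357).

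The balance of the arginases was set per kb of unshared exon. Arg1 made up 99.2 to 99.8% of the sum of both arginases in EpoR+ and 93.9 to 96.1% in EpoR- libraries. In lymph node the Arg1 share was 0.41 to 1.63% in cKO and 0.0927 to 0.267% in control libraries. In spleen it was 1.56 to 2.03% in cKO and 0.211 to 4.08% in control libraries. After TLI/ATS it was 0 to 13.9%, against 0 to 1.83% in untreated cDC1s. The sorts, mice and counting of the tables differ, so this contrast between tables carries no test.

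Levels per kb also gave the order of the family within each table, leaving out Il4i1. In the third table the ranges were 11.5 to 28.2 CPM per kb for Arg2, 2.67 to 15.2 for Aldh1a2, 1.97 to 5.47 for Kynu, 0.782 to 2.17 for Ido1, 0.186 to 0.944 for Ido2 and 0.022 to 0.489 for Arg1. Each range overlapped the next, and the order was not the same in every library, since Kynu (2.93) stood above Aldh1a2 (2.67) in lymph node control replicate 3. In EpoR+ cells Arg1 stood first at 43.3 and 99.6 CPM per kb, and Kynu and Aldh1a2 followed together at 3.12 to 3.51. In EpoR- cells Kynu (4.71 and 5.35) and Arg1 (4.75 and 4.48) were level. In the first table Kynu led at 6.46 and 7.5 CPM per kb after TLI/ATS and at 8.95 and 8.68 in untreated cDC1s.

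**Figure D3:**
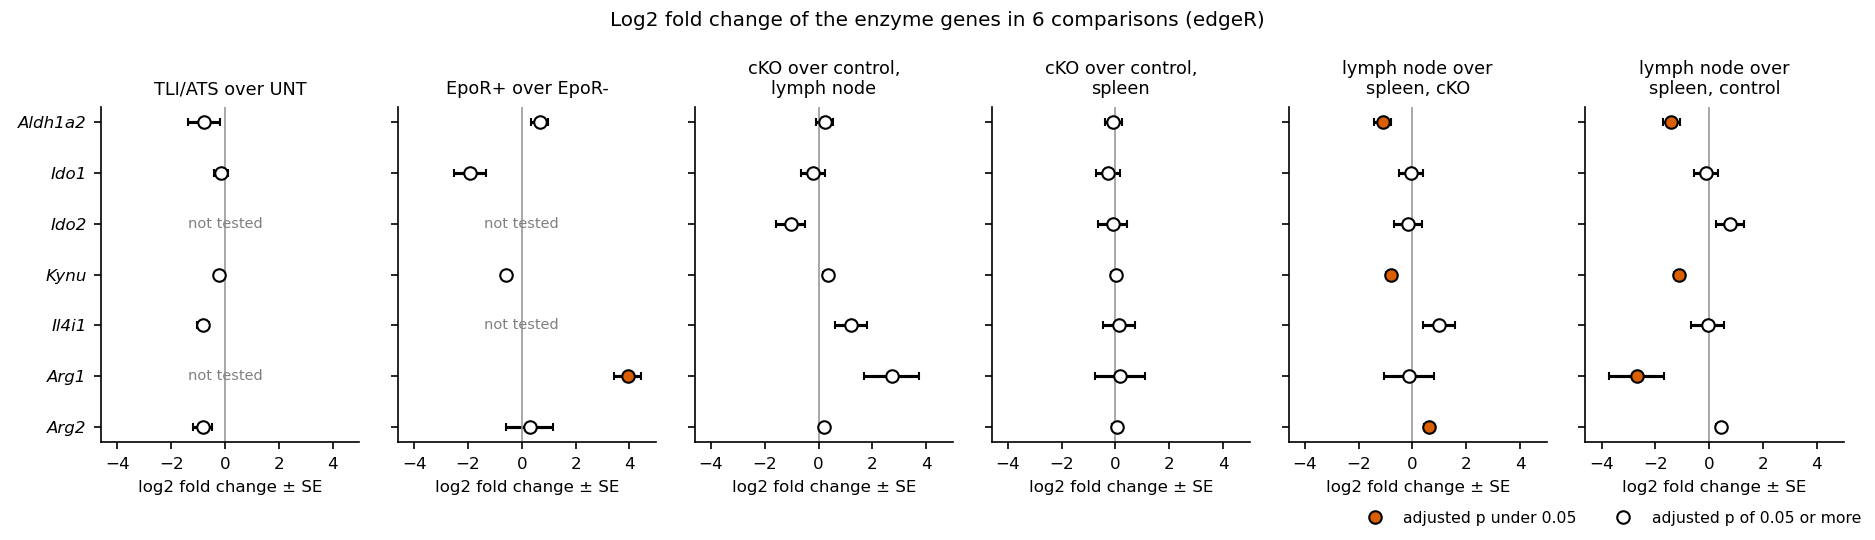
Log2 fold change of each enzyme gene with its SE in 6 comparisons, filled where the adjusted p is under 0.05. The filled points are Arg1 in EpoR+ over EpoR- cells, Aldh1a2 and Kynu in lymph node over spleen of either genotype, Arg2 there in cKO and Arg1 there in controls.

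For the family as a whole, none of 5 enzymes tested passed after TLI/ATS, where 2.7% of all genes passed (edgeR, with 1 enzyme at an unadjusted p under 0.05 and 1 called by DESeq2). Their median log2 fold change was -0.78, against 0.02 over all genes, and all 5 values were below 0. The value of Il4i1 among them may rest in part on reads of Tbc1d17. Of 23 macrophage markers tested 12 rose after TLI/ATS, with sums of 2350 to 3070 CPM against 1150 to 1160 CPM in untreated cDC1s, where Vsig4 was at 0. Of T and NK cell markers 13 of 16 fell, with sums of 26.5 to 40.9 CPM after TLI/ATS against 843 to 848 CPM in untreated cDC1s, and 8 of 10 plasmacytoid dendritic cell markers fell, with sums of 251 to 253 against 1160 to 1180 CPM. The part of these cells in the enzyme values was not tested.

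After loss of Epor none of 7 enzymes passed in lymph node, where 0.455% of all genes passed (edgeR, with 1 enzyme at an unadjusted p under 0.05 and 0 called by DESeq2). In spleen none of 7 passed either, where 0.611% of all genes passed (edgeR, with 0 at an unadjusted p under 0.05 and 0 called by DESeq2). The groups did not overlap for 2 of 7 enzymes in lymph node, Arg1 and Ido2, where they did not for 15.9% of all genes tested, and for 0 of 7 in spleen, where they did not for 17.1%. The cKO effect differed between the tissues for none of 7 enzymes, where 0.317% of all genes passed that test (edgeR, with 0 at an unadjusted p under 0.05 and 0 called by DESeq2). The largest such difference was that of Arg1, at 2.56 ± 1.37 (SE; edgeR, adjusted p = 0.464).

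Between tissues, 41.3% of all genes tested passed in controls and 29.4% in cKO mice. Relative to spleen, 11 of 14 cDC1 markers fell in lymph node in controls and 12 of 14 did so in cKO mice. Their sums were 3300 to 3500 CPM in lymph node cKO, 3200 to 3390 CPM in lymph node control, 4900 to 5170 CPM in spleen cKO and 4690 to 4840 CPM in spleen control libraries. Of 20 maturation genes that accompany CCR7, 11 rose and 5 fell in controls, and 10 rose and 5 fell in cKO mice. Their sums were 41300 to 45400 CPM over the lymph node and 24100 to 28100 CPM over the spleen libraries. T and NK cell markers rose for 12 of 14 tested in controls and 11 of 14 in cKO mice, with sums of 299 to 350 CPM in lymph node and 95.8 to 122 CPM in spleen. In lymph node the NK cell markers Klrb1c (either genotype) and Ncr1 (cKO) were at 0. Markers of stromal and mesothelial cells, which can also express Aldh1a2, rose for 3 of 8 tested (37.5%) in either genotype, near the share of all genes. They summed to 19.8 to 27.2 CPM in lymph node and 6.78 to 11.9 CPM in spleen. The mesothelial markers Upk3b, Wt1 or Msln were at 0 in some of these groups. B and plasma cell markers rose for 2 and fell for 6 of 15 in controls, fell for 8 of 15 in cKO mice, and summed to 298 to 351 CPM in lymph node and 1260 to 3020 CPM in spleen. The part of these cells in the tissue differences was not tested.

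Of 22 tested retinoic acid genes around Aldh1a2, 7 rose and 1 fell in EpoR+ cells, which is 36.4% against 16.7% of all genes tested, and the median log2 fold change was 0.71, against 0.02 over all genes. Aldh1a1, another retinal dehydrogenase, averaged 13.9 ± 1.14 CPM in EpoR+ and 1.37 ± 0.347 CPM in EpoR- cells (SD, n = 2 each), a log2 fold change of 3.31 ± 0.30 (edgeR, adjusted p = 0.00171). Dhrs3, which returns retinal to retinol, averaged 51.4 ± 4.04 CPM in EpoR+ and 5.45 ± 0.695 CPM in EpoR- cells (edgeR, log2 fold change 3.22, adjusted p = 0.000293). Fabp5, a carrier of retinoic acid and fatty acids, rose by 3.39 (edgeR, adjusted p = 6e-04), and Dhrs9, a retinol dehydrogenase, fell by 1.23 (edgeR, adjusted p = 0.0222). Among the retinal dehydrogenases, Aldh1a1 passed the test and Aldh1a2 did not, and the difference between them was not tested.

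In lymph node relative to spleen, 9 of 21 tested retinoic acid genes rose and 1 fell in controls, and 5 rose and 1 fell in cKO mice. Those called were 47.6% of the list in controls, against 41.3% of all genes tested, and 28.6% in cKO mice, against 29.4% of all genes. Dhrs3 fell by 1.61 in controls (edgeR, adjusted p = 8.21e-05) and by 1.02 in cKO mice (edgeR, adjusted p = 0.0044), in the same direction as Aldh1a2. The retinoic acid receptors Rarg and Rara rose in lymph node relative to spleen in cKO mice, by 1.83 and 0.85 on the log2 scale (edgeR, adjusted p = 0.000853 and 0.00222), while Rarb and Rxra did not pass. Rara also stood higher in controls, at 31.6 ± 4.39 CPM in lymph node and 12.6 ± 3.2 CPM in spleen (SD, n = 3 each). Fabp5 averaged 216 ± 22.7 CPM in lymph node cKO and 95.1 ± 6.78 CPM in spleen cKO libraries (SD, n = 3 each). Rdh12, a retinol dehydrogenase, had 27 to 71 counts in lymph node controls and 0 in all spleen controls, at least 42.5-fold higher when the spleen group is set at 3 counts. In spleen cKO libraries Rdh12 averaged 0.809 ± 0.924 CPM (SD, n = 3), so its absence was not shared by both spleen groups.

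Of 20 tested genes of tryptophan and kynurenine metabolism, 3 rose and 3 fell in EpoR+ cells, which is 30% against 16.7% of all genes tested, with a median log2 fold change of 0.61. Kmo and Haao, the enzymes before and after Kynu, were among those that fell. Kmo, which hydroxylates kynurenine, averaged 88.6 ± 8.36 CPM in EpoR+ and 194 ± 0.524 CPM in EpoR- cells (SD, n = 2 each; edgeR, log2 fold change -1.14, adjusted p = 0.00263). Haao, which oxidises the product of Kynu, averaged 18.7 ± 0.507 CPM in EpoR+ and 37.4 ± 3.04 CPM in EpoR- cells (edgeR, log2 fold change -1.02, adjusted p = 0.00845). Qprt, which carries the pathway on to NAD, had 96 to 153 counts in EpoR+ and at most 2 in EpoR- libraries (edgeR, adjusted p = 0.00822). Slc7a8, a transporter of large neutral amino acids, rose by 1.59 (edgeR, adjusted p = 0.00629).

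In lymph node relative to spleen, 10 of 19 tested genes of this list rose and 3 fell in controls (68.4%, against 41.3% of all genes tested), and 6 rose and 4 fell in cKO mice (52.6%, against 29.4%). Kmo averaged 4.35 ± 2.06 CPM in lymph node cKO and 18.6 ± 3.4 CPM in spleen cKO libraries (SD, n = 3 each; edgeR, log2 fold change -2.32, adjusted p = 0.000245). In controls it averaged 4.38 ± 1.89 CPM in lymph node and 15.4 ± 3.15 CPM in spleen (edgeR, log2 fold change -2.10, adjusted p = 0.000376). Kmo and Kynu fell together. Haao, named after its values were seen, averaged 35.2 ± 4.66 CPM in lymph node and 35.3 ± 7.57 CPM in spleen controls. These CPM leave out the size factors of the test, which lower lymph node against spleen, so level CPM do not show that Haao was unchanged. Wars, the tryptophanyl-tRNA synthetase, rose by 1.5 in cKO mice (edgeR, adjusted p = 0.000616). Maoa, a monoamine oxidase, had 48 to 110 counts in lymph node controls and 0 in spleen controls, at least 71-fold higher against 3 counts over the group. A read pair can add 2 counts in this table, so such bounds can be too high. In spleen cKO libraries Maoa was not absent, at 0.208 ± 0.226 CPM (SD, n = 3).

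The arginine, nitric oxide and polyamine genes around Arg1 had a median log2 fold change of -0.01 in EpoR+ cells, and 4 of 29 tested rose and 1 fell, which is 17.2% against 16.7% of all genes tested. Slc7a2, a transporter of arginine and other cationic amino acids, averaged 143 ± 26 CPM in EpoR+ and 3.8 ± 0.586 CPM in EpoR- cells (SD, n = 2 each; edgeR, log2 fold change 5.21, adjusted p = 0.000116). Nos1, the neuronal nitric oxide synthase, averaged 8.64 ± 0.901 CPM in EpoR+ and 0.0795 ± 0.0285 CPM in EpoR- cells (edgeR, log2 fold change 6.67, adjusted p = 0.000599). Paox, a polyamine oxidase, rose by 2.81 (edgeR, adjusted p = 0.000333) and Sms, spermine synthase, fell by 0.67 (edgeR, adjusted p = 0.0334). Nos2, the inducible synthase that shares arginine with Arg1 in macrophages, averaged 0 CPM in EpoR+ and 0.0498 ± 0.0705 CPM in EpoR- cells.

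In lymph node relative to spleen, 4 of 28 tested arginine genes rose and 11 fell in controls (53.6%, against 41.3% of all genes tested), and 3 rose and 7 fell in cKO mice (35.7%, against 29.4%). Enzymes of polyamine synthesis were among those that fell. Odc1, which turns ornithine into putrescine, averaged 114 ± 2.81 CPM in lymph node cKO and 249 ± 8.37 CPM in spleen cKO libraries (SD, n = 3 each; edgeR, log2 fold change -1.38, adjusted p = 3.63e-08). In controls Odc1 averaged 110 ± 14.7 CPM in lymph node and 235 ± 9.74 CPM in spleen. Sms fell by 1.99 in cKO mice (edgeR, adjusted p = 3.23e-07) and by 2.13 in controls (edgeR, adjusted p = 1.07e-07). Prodh, the proline dehydrogenase, rose by 3.04 in cKO mice (edgeR, adjusted p = 0.01) and by 2.98 in controls (edgeR, adjusted p = 0.00845). Arg2, which feeds this arm with ornithine, stood higher where Odc1 and Sms stood lower.

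**Figure D4:**
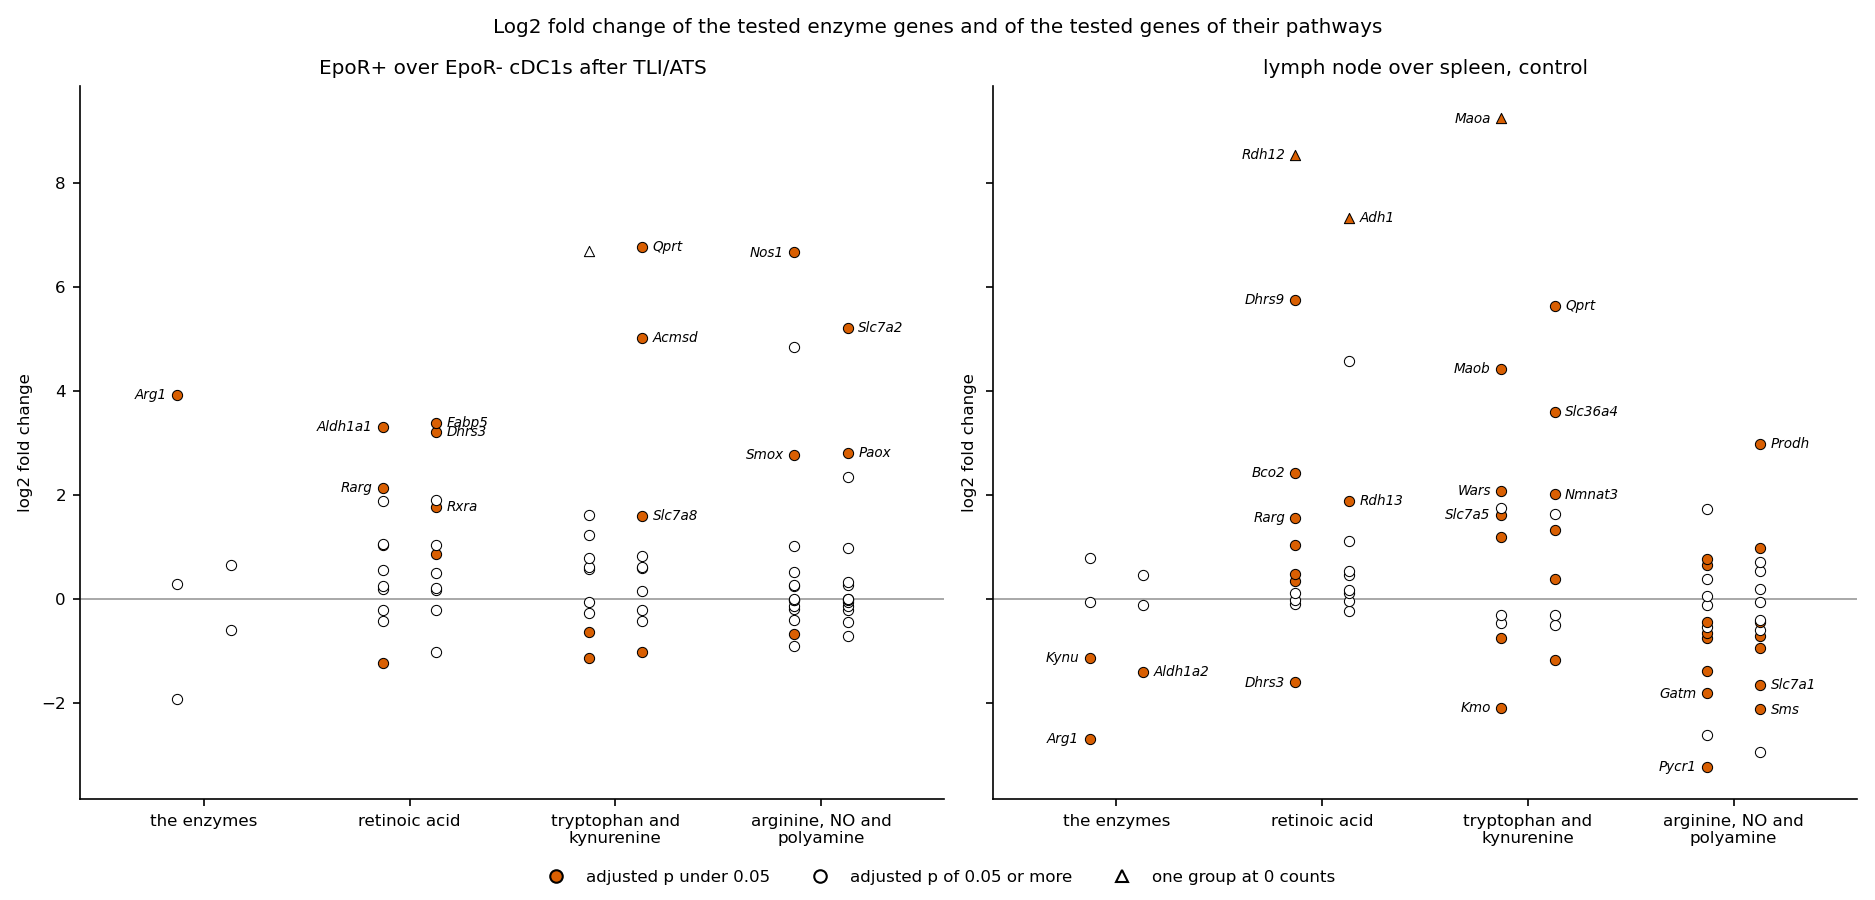
Log2 fold changes of the tested enzyme genes and of the tested genes of 3 pathway lists, in EpoR+ over EpoR- cells (left) and lymph node over spleen in controls (right), filled where the adjusted p is under 0.05. Triangles have a group at 0 counts, and their fitted value is no measure of size. Arg1 (3.93) sits beside Slc7a2 (5.21) and Nos1 (6.67) on the left, and Kynu (-1.14) beside Kmo (-2.10) on the right.

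Of 16 tested genes of the aryl hydrocarbon receptor and amino acid stress list, 2 rose and 6 fell in lymph node controls relative to spleen (50%, against 41.3% of all genes tested), and 1 rose and 4 fell in lymph node cKO (31.2%, against 29.4%). Ahr, the receptor for kynurenine and for products of Il4i1, averaged 27.3 ± 2.98 CPM in lymph node cKO and 56.3 ± 2.07 CPM in spleen cKO libraries (SD, n = 3 each; edgeR, log2 fold change -1.29, adjusted p = 2.16e-06). In controls Ahr fell by 1.67 (edgeR, adjusted p = 1.05e-07) while Ahrr, its repressor, rose by 4.17 (edgeR, adjusted p = 0.00257). In EpoR+ cells, where 16.7% of all genes passed, 4 of 18 rose and none fell (edgeR, with 6 at an unadjusted p under 0.05 and 5 called by DESeq2), among them Ahrr by 2.79 (edgeR, adjusted p = 0.0086) and Ddit4, a stress-induced inhibitor of mTORC1, by 4.38 (edgeR, adjusted p = 0.000121).

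Of 11 tested genes of phenylalanine and tyrosine breakdown, 2 rose and 3 fell in lymph node controls relative to spleen, where 41.3% of all genes passed, and 2 rose and 4 fell in cKO mice, where 29.4% did. Hgd and Fah, late steps of tyrosine breakdown, were the pair that rose, Hgd by 2.54 and Fah by 1.19 in controls (edgeR, adjusted p = 4.27e-06 and 9.4e-05). In EpoR+ cells Fah was the only gene of 7 tested to pass, where 16.7% of all genes did, with a rise of 3.35 (edgeR, adjusted p = 0.00727).

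Of 36 reported regulators of these enzymes, 8 rose and 3 fell in EpoR+ cells, which is 30.6% against 16.7% of all genes tested. Pparg, a lipid-sensing receptor reported to raise retinal dehydrogenase in dendritic cells, averaged 98 ± 0.891 CPM in EpoR+ and 9.12 ± 0.921 CPM in EpoR- cells (SD, n = 2 each; edgeR, log2 fold change 3.41, adjusted p = 0.000121). Nr1h3 (LXR alpha) rose by 6.06 there (edgeR, adjusted p = 0.0027), while Ifngr1, a chain of the interferon-gamma receptor whose signal induces Ido1, fell by 0.58 (edgeR, adjusted p = 0.0119) and Irf8 by 0.84 (edgeR, adjusted p = 0.00732). Between the tissues 11 rose and 14 fell in lymph node controls and 8 rose and 12 fell in lymph node cKO, where 41.3 and 29.4% of all genes passed. Ifngr1 fell by 1.47 in lymph node cKO (edgeR, adjusted p = 2.96e-06), and Cd80, the ligand through which Ctla4 is reported to induce Ido1, fell by 1.94 in lymph node controls (edgeR, adjusted p = 7.68e-08).

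Of 128 tested genes over all 6 pathway lists, edgeR called 1 after TLI/ATS, where 2.7% of all genes passed, and DESeq2 called 11. The 1 was Nr1h3, with a log2 fold change of 2.58 ± 0.31 (SE; edgeR, adjusted p = 0.0246). Of 131 tested genes, edgeR called 1 after loss of Epor in lymph node, where 0.455% of all genes passed, and DESeq2 called 4. The 1 was Cd80, which averaged 24.9 ± 3.53 CPM in cKO and 15 ± 1.67 CPM in control libraries (SD, n = 3 each; edgeR, log2 fold change 0.73, adjusted p = 0.0342). In spleen edgeR called 1 of 131, where 0.611% of all genes passed, and DESeq2 called 7. The 1 was Slc36a4, an amino acid transporter that takes tryptophan, at 1.87 ± 1.02 CPM in cKO and 0.184 ± 0.109 CPM in control libraries (edgeR, log2 fold change 3.32, adjusted p = 0.0367). B and plasma cell markers rose for 3 of 15 in the same comparison (Jchain, Igkc and Xbp1), with sums of 2680 to 3020 CPM in cKO and 1260 to 1530 CPM in control libraries, and their part in the Slc36a4 value was not tested. The cKO effect differed between the tissues for 0 of 131 (edgeR, with 18 at an unadjusted p under 0.05 and 11 called by DESeq2).

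**Figure D5:**
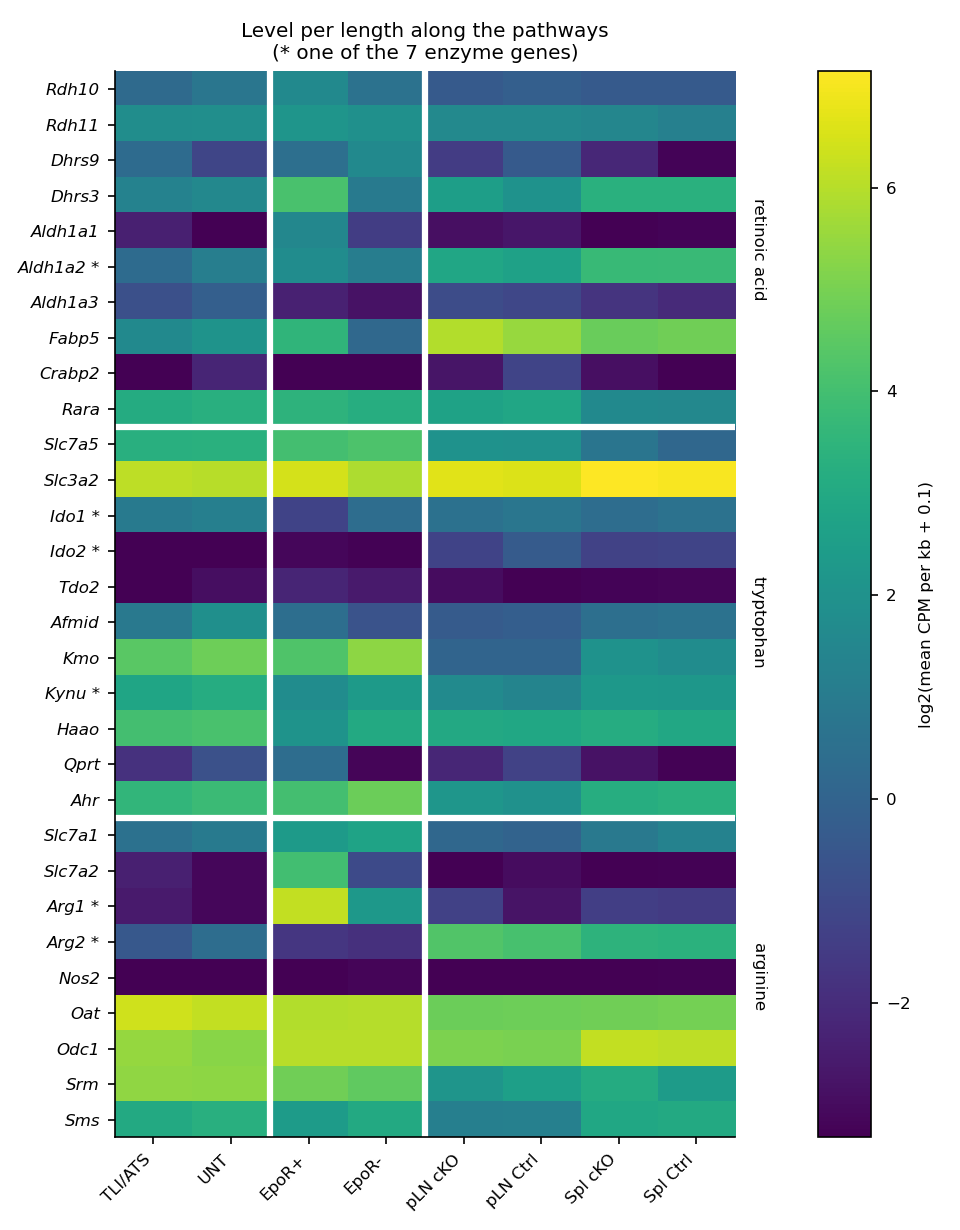
Heatmap of log2(mean CPM per kb of full exon length + 0.1) for genes along the retinoic acid, tryptophan and arginine pathways (rows) in the 8 groups (columns), with white lines between tables and between pathways. The rows were picked by their place in the pathway with the values known. Arg1 and Slc7a2 are bright in EpoR+ cells, Arg2 in the 4 groups of the third table, and Kmo and Kynu are dimmer in lymph node than in spleen.

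Genes with the most similar pattern were sought by the smallest root mean square difference of log2(CPM + 1), centred within each table. Over 20 libraries and 11331 candidates, Aldh1a2 was most like Rasal1 (0.264, against a median of 0.739), followed by Soat1, Lpin1 and Tpcn1. Kynu was most like Dusp16 (0.14, against 0.549), followed by Map4k4, Adipor2 and Bcl2l14. Ido1 was most like Zfp800 (0.222) and Arg2 most like Tmem128 (0.115). In the 12 libraries of the third table, with 12550 candidates, Ido2 was most like Cyp4f16 (0.163) and Arg1 most like Fam83e (0.194). Arg1 had only 2 to 43 counts there, so its likeness may be mostly counting error. Il4i1 was most like Tcte2 (0.24), but its counts there give no measure of its expression. The enzymes were not among each other's 4 nearest genes.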

How the data were processed

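RNA of sorted mouse cDC1s was sequenced and the authors deposited raw read counts per gene in 3 tables, which were used as deposited. Per the file headers, the second and the third table were counted with featureCounts 2.0.3 and 2.0.8, without strand and without joining read pairs to fragments, the third on the Ensembl annotation of GRCm38, release 100. HISAT2 (with a version 2.1.0), SAMtools and StringTie are named in the submitters' processing notes. For the first table the counting mode is not given in the sources used here. All columns were mapped to samples. CPM were computed from each library's total of 26618029 to 77570149 counts, so 3 counts, the limit that a count of 0 allows, were 0.0387 to 0.113 CPM, for counting error only.

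Each table was fitted alone with edgeR 4.0.16 (limma 3.58.1, R 4.3.3) by its quasi-likelihood test with TMM factors, keeping genes by filterByExpr (minimum count 10, total 15), with Benjamini-Hochberg adjustment across every gene of the table that passed the filter and a threshold of 0.05. The first and second tables had 4 libraries each, and the third table was fitted on all 12 libraries with 4 group means. The family's members and every gene list were chosen with earlier results of these data known. Of each pathway list, up to 3 genes per direction were eligible to be named in each comparison, those with the largest log2 fold change among genes past the threshold whose groups did not overlap. A gene named for a single genotype may therefore differ in the other as well. Levels per kb divide CPM by the exon length shared with no other gene, except in the heatmap, which uses the full exon length. The fit was tested on simulated counts, where many of the changes put in were missed. Of changes of log2 size 1, it recovered 9.18% for TLI/ATS, 20.8% for the EpoR sort and 26 to 26.5% between tissues. After loss of Epor it recovered 33.3% in spleen and 38.5% in lymph node. In each simulation 93 to 100 genes were changed at each size, far fewer than passed in the EpoR sort and between tissues. With few changed genes the adjusted threshold is harder to reach, so these shares do not measure how many real changes were found there. An enzyme that did not pass can still differ. Alternatives were other size factors, DESeq2 1.42.0, no filter, immunoglobulin and T cell receptor segments left out, each replicate left out, only the groups compared, and the replicate number as a block. Replicates with the same number were not taken as pairs, since no label ties them to an animal or batch. In the EpoR sort, deviations of same-numbered libraries from their group means correlated at 0.561. Whether they are pairs is not settled, so the fit with the block is given beside the main one.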

Additional observations from a re-analysis of the deposited data

How the results depend on the processing

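Of the 7 called enzyme differences, Kynu in lymph node against spleen of either genotype and Aldh1a2 there in controls kept direction and call in all 12 alternatives. The other called values kept their direction throughout and lost the call under the alternatives named in the report, and the cause was not tested. With DESeq2, 1 enzyme passed after TLI/ATS (Il4i1) and 3 in the EpoR sort (Arg1, Ido1 and Kynu). Leaving out a replicate gave 0 to 1 enzymes after TLI/ATS, 0 to 1 in the EpoR sort, 2 to 3 between tissues in cKO mice and 2 to 4 in controls.

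The counts of all genes past the threshold moved more. After TLI/ATS it was 465 genes, with 1324 by DESeq2 and 476 to 4908 with a replicate left out. In the EpoR sort it was 2606, with 1454 to 2600. After loss of Epor in lymph node it was 79, with 204 by DESeq2, 170 with no filter, 50 without immunoglobulin and T cell receptor segments, 44 with only the 2 groups compared and 51 to 72 with a replicate left out. In spleen it was 106, with 647, 436 and 22 under the first 3 of these and 31 to 379 with a replicate left out. For the tissue difference of the cKO effect it was 55, with 507, 364 and 17, and 29 to 222. Between tissues it was 3856 to 4496 in cKO mice and 5877 to 7014 in controls with a replicate left out.

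The replicate number as a block gave 1264 genes after TLI/ATS, 5347 in the EpoR sort with 2 enzymes (Ido1 -1.99, edgeR adjusted p = 0.0296, and Kynu -0.60, adjusted p = 0.0139, while Arg1 was 3.81 with adjusted p = 0.0584), 40 in spleen after loss of Epor and 34 for the tissue difference. Arg1 in lymph node against spleen was 0.04 in cKO mice and -2.58 in controls (edgeR, adjusted p = 0.0827) under the block. Deviations of same-numbered libraries correlated at -0.087 after TLI/ATS, 0.561 in the EpoR sort (a pair of numbers only) and -0.179 to 0.015 in the third table.

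Leaving out a replicate turned the sign of 14 uncalled log2 fold changes in 22 fits. Their ranges were -0.09 to 0.59 for Arg2 in the EpoR sort and -0.15 to 0.83 for Aldh1a2 after loss of Epor in lymph node. After loss of Epor in spleen they were -0.59 to 0.13 for Ido1, -0.34 to 0.17 for Ido2, -0.34 to 1.0 for Arg1, -0.09 to 0.22 for Arg2 and -0.10 to 0.11 for Kynu. For the tissue difference they were -0.33 to 0.39 for Ido1 and -0.07 to 0.91 for Aldh1a2. Between tissues they were -0.28 to 0.30 for Ido1, -0.64 to 0.07 for Ido2 and -0.53 to 0.27 for Arg1 in cKO mice, and -0.30 to 0.29 for Ido1 and -0.63 to 0.41 for Il4i1 in controls. A lone library left in a group was assumed to vary like the others.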
